A study of Mus musculus with 9 samples.

Results

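A set of 10 genes of the bone morphogenetic protein (BMP) and activin pathway were followed in primary mouse osteoblasts, the bone-forming cells, 4 h after addition of parathyroid hormone (PTH) peptides. The genes were the BMP ligands Bmp2, Bmp4 and Bmp6, the activin subunits Inhba and Inhbb, the antagonists Fst, Nog and Grem1, the receptor Bmpr1a and the target gene Id1. They were 10 of 22180 genes with a transcript cluster, the array's probe set for a transcript region, that carried a single gene symbol. A gene with several clusters was to be represented by the cluster chosen by its top average level across the 9 arrays, but each of the 10 genes had exactly 1 cluster. That average set no group against another. The genes themselves were listed with earlier results of these arrays known, so counts over the 10 describe them and are not independent evidence.

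The cells were released by enzymes from the calvaria, the roof of the skull, of C57BL/6J mice, which were 7 to 10 days old, and were used at passage 2. All were differentiated from day 3, deprived of serum on day 10 for 24 h, and then given 100 nM hPTH(1-34), 1 µM bPTH(7-34) or vehicle for 4 h. Each group had 3 arrays of separately prepared cells, and the labels do not say whether arrays of one number in different groups shared a preparation. hPTH(1-34) is the human fragment that activates the PTH receptor, which raises cyclic AMP. bPTH(7-34) is a bovine amide that starts at residue 7 and carries D-Trp at residue 12 and Tyr at residue 34, and such shortened fragments are known as antagonists of that receptor. The doses of the peptides differed, so a difference between them holds at these doses alone. Cells isolated in this way are mixed, and the arrays hold RNA of the whole culture, so fewer cells of a type and less RNA per cell cannot be told apart.

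BMPs and activins are secreted dimers of the TGF-beta family. BMPs bind receptors such as BMPR1A and act through SMAD1 and its relatives, which switch on Id genes, whereas activins act through SMAD2 and SMAD3. Noggin and gremlin bind BMPs outside the cell, and follistatin binds activins tightly and some BMPs less so. In bone, BMPs drive osteoblast differentiation, and their antagonists limit it.

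With hPTH(1-34), the RNA of Bmp4 fell and that of Inhba, the activin A subunit, rose, each by over 2-fold. These were 2 of the 10 genes past an adjusted p of 0.05 (limma, Benjamini-Hochberg over all 23521 single-symbol clusters), and 0.451% of all clusters passed. The extracellular BMP antagonists Grem1 and Noggin (Nog) had higher means with hPTH(1-34) than with vehicle, and the means of Bmp2 and follistatin (Fst) were lower, but these 4 differences missed the adjusted threshold. Bmp6, Inhbb, Bmpr1a and Id1 differed less. With bPTH(7-34), 0 of the 10 passed.

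Bmp4 and Inhba carry the result, and Grem1 had the highest fold of the 10, so the stretches just upstream of their annotated start sites are shown. Promoter entries, from 250 bases before to 50 after the start, were found for 6 of the 10 genes (RefSeq, GRCm38.p6), namely Bmp4, Bmp6, Inhba, Inhbb, Grem1 and Bmpr1a. The 250 upstream bases follow, read 5′ to 3′ on the gene's strand. They lie at chr13:16011601-16011850 on the plus strand for Inhba, at chr14:46390670-46390919 on the minus strand for Bmp4, and at chr2:113758649-113758898 on the minus strand for Grem1. Capitals mark a TATAAA match (the letters of a TATA box) in Inhba and GGGCGG matches (the letters of a GC box) in Bmp4 and Grem1. Whether any match works as such a box was not tested.
Inhba: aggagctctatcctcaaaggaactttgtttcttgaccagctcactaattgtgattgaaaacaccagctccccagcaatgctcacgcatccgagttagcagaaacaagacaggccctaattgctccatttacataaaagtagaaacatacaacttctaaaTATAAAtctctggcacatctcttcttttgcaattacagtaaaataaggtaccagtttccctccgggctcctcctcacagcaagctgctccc
Bmp4: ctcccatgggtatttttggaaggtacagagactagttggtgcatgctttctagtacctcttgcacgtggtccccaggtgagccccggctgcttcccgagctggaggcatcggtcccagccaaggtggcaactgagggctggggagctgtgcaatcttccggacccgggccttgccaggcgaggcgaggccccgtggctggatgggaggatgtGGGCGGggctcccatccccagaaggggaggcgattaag
Grem1: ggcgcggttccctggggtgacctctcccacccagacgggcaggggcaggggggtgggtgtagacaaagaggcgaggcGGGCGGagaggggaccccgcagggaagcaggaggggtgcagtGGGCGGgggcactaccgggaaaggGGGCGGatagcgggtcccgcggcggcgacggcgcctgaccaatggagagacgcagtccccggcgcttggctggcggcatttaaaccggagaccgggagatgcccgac

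Both strands were searched over the whole 300-base windows. The Inhba window held 1 TATAAA and 0 GGGCGG, its match starting 91 bases before the start site. The Bmp4 window held 1 GGGCGG, 38 bases before the start, and the Grem1 window held 3, at 173, 131 and 107 bases before it. GGGCGG was not particular to these genes, with 1 match in the Bmp6 window, 1 in Inhbb and 4 in Bmpr1a. Over all 32851 promoter windows, 13.6% held TATAAA and 35.7% held GGGCGG. The cyclic AMP response element TGACGTCA, and the shorter TGACG that lies within it, were in 0 of the 6 members' windows, against 1.79% and 20.8% of all windows. The matches describe the letters of these windows alone. The upstream bases were 43.2% G or C in Inhba, 63.2% in Bmp4 and 72% in Grem1, with a median of 52.4% over all windows. In Bmp6, Inhbb and Bmpr1a they were 68.8%, 68% and 78.8%.

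**Figure D1:**
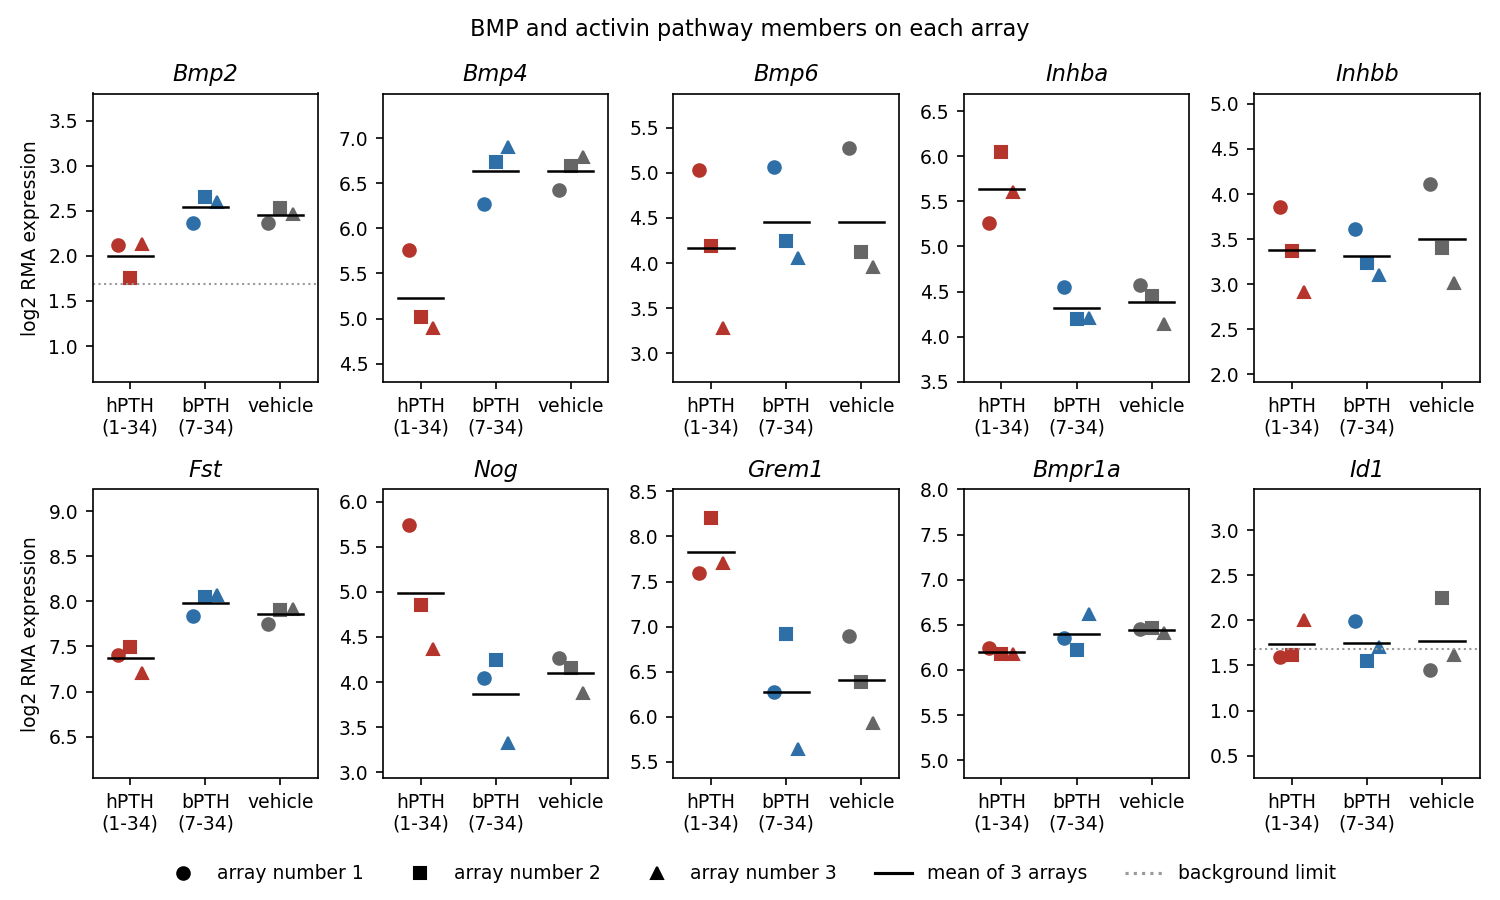
Each panel plots one gene's log2 RMA expression on the 9 arrays (vertical axis, the same span in every panel) for hPTH(1-34), bPTH(7-34) and vehicle, with a symbol per array number, bars at group means and a dotted line at the background limit of 1.69 where it falls inside the panel. The 3 hPTH(1-34) arrays lie below all others for Bmp4 and above all others for Inhba and Grem1, whereas for Bmp6 and Inhbb array 1 is highest in every group.

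Bmp4 encodes a BMP ligand made by osteoblasts. Its log2 level was 5.76, 5.02 and 4.89 on hPTH(1-34) arrays 1, 2 and 3, against 6.43, 6.69 and 6.79 on the vehicle arrays. The 3 hPTH(1-34) values lay below every other array, and array 1 was the closest of them to vehicle. The mean was 5.22 ± 0.47 with hPTH(1-34) and 6.64 ± 0.19 with vehicle (SD, n = 3 each), a log2 change of -1.41 ± 0.24 (SE), to 37.5% of the vehicle level (limma adjusted p = 0.0484, 95% interval -1.96 to -0.87). Lower calls made up 0.14% of all clusters in this comparison.

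With bPTH(7-34) the Bmp4 levels were 6.27, 6.74 and 6.90, which overlapped vehicle. The log2 difference from vehicle was 0.00 ± 0.24, with an interval from -0.54 to 0.54. hPTH(1-34) was lower than bPTH(7-34) by the same size, at a log2 change of -1.41 ± 0.24 (limma adjusted p = 0.0488). In that comparison 0.463% of all clusters were called in either direction, and 0.132% of all clusters were called lower.

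Inhba encodes the beta A subunit, whose dimer is activin A. Its log2 level was 5.26, 6.05 and 5.60 with hPTH(1-34), 4.55, 4.20 and 4.21 with bPTH(7-34), and 4.57, 4.45 and 4.14 with vehicle. All 3 hPTH(1-34) arrays were above the other 6, and bPTH(7-34) and vehicle overlapped. The mean was 5.64 ± 0.40 with hPTH(1-34) and 4.39 ± 0.22 with vehicle (SD, n = 3 each), a rise of 2.38-fold (log2 change 1.25 ± 0.20 SE, limma adjusted p = 0.0442, interval 0.79 to 1.71). Higher calls made up 0.31% of all clusters. Against bPTH(7-34), whose mean was 4.32 ± 0.20, Inhba was 2.49-fold higher with hPTH(1-34) (log2 change 1.32 ± 0.20, limma adjusted p = 0.0350), and higher calls made up 0.332% of clusters. bPTH(7-34) differed from vehicle by -0.07 ± 0.20, with an interval from -0.52 to 0.39.

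Both calls lay close to the threshold. In each of the comparisons with vehicle and with bPTH(7-34), leaving out hPTH(1-34) array 1 kept both, and leaving out any of the other 8 arrays ended both, with the direction kept throughout. Against vehicle, without hPTH(1-34) array 1 the log2 change was -1.68 for Bmp4 (adjusted p = 0.00883) and 1.44 for Inhba (adjusted p = 0.0131). With the other arrays left out the adjusted p ran from 0.0711 to 0.225 for Bmp4 and from 0.0731 to 0.196 for Inhba. Testing all transcript clusters, with or without a symbol, ended both calls in both comparisons, as did a fit to only the 6 arrays compared. With every array in the fit, 106 of 23521 clusters were called against vehicle and 109 against bPTH(7-34). The fit to only 6 arrays called 0 in each. Testing all clusters called 16 and 3 of 41345. Against vehicle, leaving out hPTH(1-34) array 2 or 3 left 3 and 2 clusters called, and vehicle array 2 or 3 left 0. Leaving out vehicle array 1 or a bPTH(7-34) array left 44 to 72. The loss of calls was thus not particular to Bmp4 and Inhba.

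Bmp2, a ligand that induces bone, was read at low levels. Its log2 values were 2.12, 1.75 and 2.13 with hPTH(1-34), 2.36, 2.65 and 2.60 with bPTH(7-34), and 2.36, 2.53 and 2.46 with vehicle. The hPTH(1-34) values were below all others, the lowest of them near the background limit of 1.69. That limit is the level below which 95% of 1105 olfactory receptor genes, silent in bone, had their mean with vehicle. The log2 change was -0.45 ± 0.13 against vehicle (adjusted p = 0.267) and -0.54 ± 0.13 against bPTH(7-34) (adjusted p = 0.155), so neither passed.

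Bmp6, a BMP ligand, and Inhbb, the subunit of activin B, varied mainly with the array number. Bmp6 read 5.03, 4.19 and 3.28 with hPTH(1-34), 5.07, 4.25 and 4.06 with bPTH(7-34), and 5.28, 4.12 and 3.96 with vehicle. Inhbb read 3.86, 3.37 and 2.92 with hPTH(1-34), 3.61, 3.24 and 3.10 with bPTH(7-34), and 4.11, 3.40 and 3.01 with vehicle. For both genes array 1 was the highest and array 3 the lowest in all 3 groups, and the groups overlapped.

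Of the sum of squares over the 9 arrays, the array number held 87.8% for Bmp6 and 87.6% for Inhbb, and the group 5.08% and 4.43%. The medians over all clusters were 24.7% for the number and 24.5% for the group. In contrast, the group held 84.7% for Bmp4 and 87% for Inhba. The log2 difference of hPTH(1-34) from vehicle was -0.29 ± 0.48 for Bmp6, with an interval from -1.38 to 0.80, and -0.12 ± 0.30 for Inhbb, with an interval from -0.81 to 0.56. The summed level of 7 chondrocyte markers ran the other way, lowest on array 1 of each group, at 8.22 with hPTH(1-34), 8.15 with bPTH(7-34) and 8.27 with vehicle, against 8.81 to 9.30 on the other 6 arrays. The summed level of 7 adipocyte markers ran the same way as Bmp6 and Inhbb in that array 1 was highest, at 9.03 with hPTH(1-34), 8.59 with bPTH(7-34) and 8.26 with vehicle, but array 2 and not array 3 was lowest, at 8.15, 7.99 and 7.75. The part of either list in the Bmp6 and Inhbb levels was not tested.

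Grem1 encodes gremlin, which binds BMP2 and BMP4. Its log2 level was 7.59, 8.20 and 7.70 with hPTH(1-34), 6.28, 6.92 and 5.64 with bPTH(7-34), and 6.90, 6.39 and 5.93 with vehicle. Every hPTH(1-34) array was above the other 6, while bPTH(7-34) and vehicle overlapped and each spread widely. The mean with hPTH(1-34) was 2.68 times that with vehicle (log2 change 1.42 ± 0.34, interval 0.66 to 2.19), the highest fold of the 10 members, but the adjusted p was 0.159. Against bPTH(7-34) the log2 change was 1.55 ± 0.34 (adjusted p = 0.110).

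Nog encodes noggin, which blocks BMPs from their receptors. It read 5.74, 4.86 and 4.37 with hPTH(1-34), 4.04, 4.25 and 3.33 with bPTH(7-34), and 4.27, 4.16 and 3.88 with vehicle. The hPTH(1-34) arrays lay above all others, array 1 by far and array 3 narrowly. The log2 change was 0.89 ± 0.34 against vehicle (adjusted p = 0.443, interval 0.12 to 1.65) and 1.12 ± 0.34 against bPTH(7-34) (adjusted p = 0.283). Neither passed. Without hPTH(1-34) array 1 the difference from vehicle was 0.51.

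Fst encodes follistatin, the activin-binding protein. Its log2 level was 7.41, 7.49 and 7.21 with hPTH(1-34), 7.84, 8.05 and 8.07 with bPTH(7-34), and 7.75, 7.90 and 7.92 with vehicle. All hPTH(1-34) values were below the others, and the spread within each group was small. The log2 change was -0.49 ± 0.11 against vehicle (adjusted p = 0.134) and -0.62 ± 0.11 against bPTH(7-34) (adjusted p = 0.0562). The difference from bPTH(7-34) passed the threshold in 5 of 10 other ways of processing all 9 arrays or the 6 compared, with adjusted p from 0.0153 to 0.176 over those 10. Against vehicle it passed in 1 of them (adjusted p = 0.0397).

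Bmpr1a, a type I receptor for BMP2 and BMP4, had a slightly lower mean with hPTH(1-34) than with vehicle, a difference that did not pass. It read 6.24, 6.18 and 6.18 with hPTH(1-34), 6.35, 6.22 and 6.62 with bPTH(7-34), and 6.45, 6.47 and 6.41 with vehicle. hPTH(1-34) and vehicle did not overlap, but hPTH(1-34) and bPTH(7-34) did. The log2 difference from vehicle was -0.24 ± 0.11 with hPTH(1-34) (adjusted p = 0.537), with an interval from -0.49 to 0.00.

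Id1, a helix-loop-helix protein gene switched on by BMPs through SMAD1, was read at 1.59, 1.62 and 2.00 with hPTH(1-34), 1.99, 1.55 and 1.70 with bPTH(7-34), and 1.45, 2.25 and 1.62 with vehicle. These values straddle the background limit, and the groups overlapped. The difference of hPTH(1-34) from vehicle was -0.04 ± 0.21, but at this signal a change of the RNA could go unseen.

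**Figure D2:**
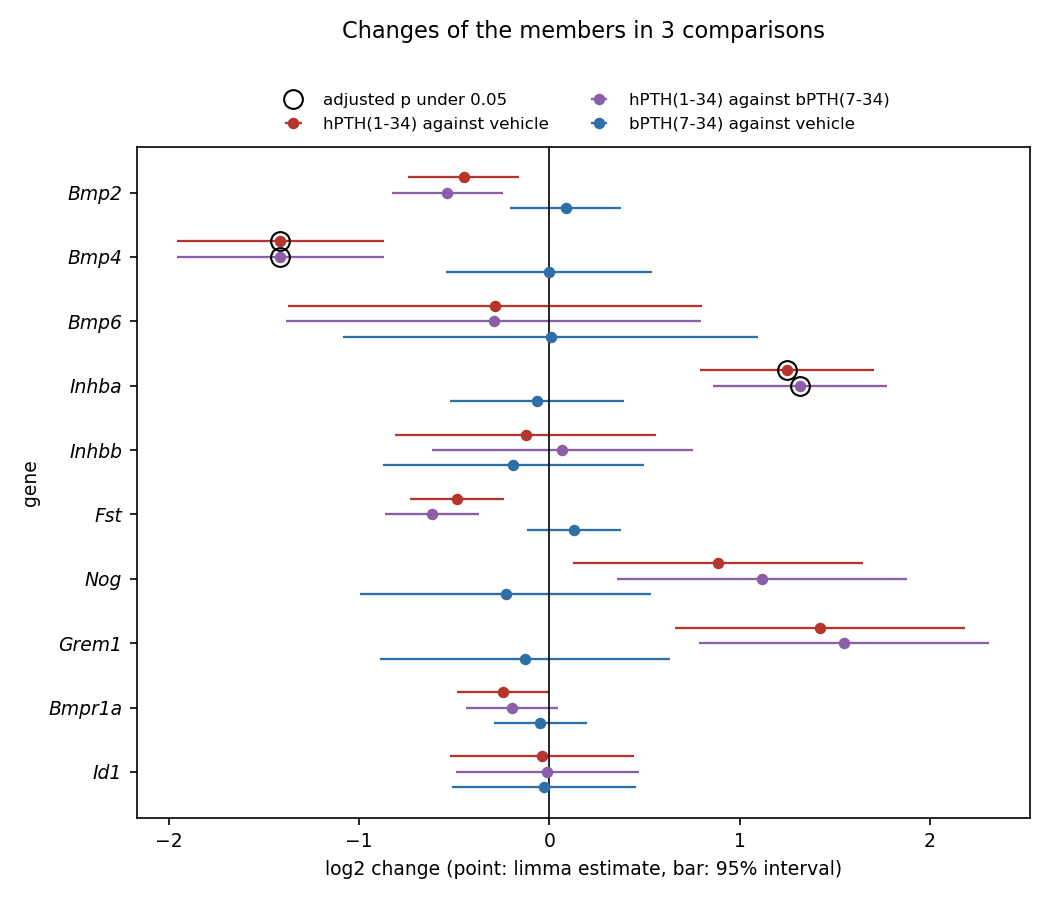
Points give each gene's log2 change (horizontal axis) in 3 comparisons, bars the 95% interval from limma, and rings an adjusted p under 0.05. Bmp4 and Inhba are ringed in both comparisons of hPTH(1-34), at -1.41 and 1.25 against vehicle, and every interval for bPTH(7-34) against vehicle includes 0.

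Of the 10 members, 7 had hPTH(1-34) and vehicle values that did not overlap, namely Bmp2, Bmp4, Inhba, Fst, Nog, Grem1 and Bmpr1a, against 10.7% of all clusters. At an unadjusted p of 0.05, 6 of the 10 passed against vehicle, 3 of them higher and 3 lower, where 9.31% of all clusters did. In the comparison of hPTH(1-34) with bPTH(7-34), 6 did not overlap against 11.1% of clusters, and 6 passed the unadjusted threshold against 9.52%. For bPTH(7-34) against vehicle the members' counts were 0 without overlap (5.29% of clusters), 0 at the unadjusted threshold (3.32%) and 0 called, as were 0 of all 23521 clusters (0%). The comparisons with vehicle share the vehicle arrays, and both of those with hPTH(1-34) share its arrays. The median size of the members' log2 change against vehicle was 0.47 with hPTH(1-34) and 0.08 with bPTH(7-34), and over all clusters it was 0.11 and 0.09.

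The size of the difference between arrays of one number varied among the numbers. For hPTH(1-34) minus vehicle, Bmp4 gave -0.67, -1.67 and -1.90, and Inhba gave 0.69, 1.60 and 1.46. Grem1 gave 0.69, 1.81 and 1.77. Bmp2 gave -0.24, -0.78 and -0.33, Fst gave -0.34, -0.41 and -0.71, and Bmpr1a gave -0.21, -0.29 and -0.23. In each of these genes the difference in number 1 was the smallest in size, for Bmp2, Fst and Bmpr1a narrowly. Of the 7 members whose hPTH(1-34) and vehicle values did not overlap, Nog alone went the other way. Its difference in number 1 was the largest, at 1.47, against 0.70 and 0.49 in numbers 2 and 3.

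**Figure D3:**
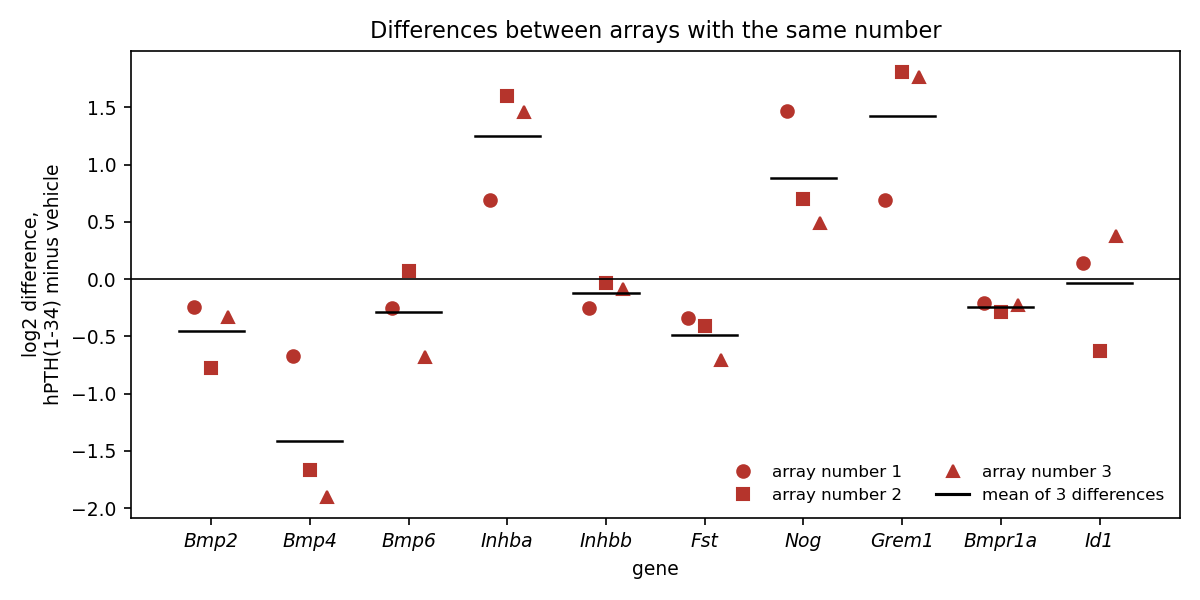
For each gene the points are the log2 difference between the hPTH(1-34) and vehicle arrays of one number (vertical axis), and the bar is the mean of the 3 differences. The number 1 difference is the nearest to 0 for Bmp2, Bmp4, Inhba, Fst, Grem1 and Bmpr1a and the farthest from 0 for Nog at 1.47.

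The other genes of the pathway were taken from lists of ligands, antagonists, receptors, SMADs with their regulators, and target genes, of which 103 of 111 entries had a single-symbol cluster. Of these, 0 passed the adjusted threshold in any of the 3 comparisons. At an unadjusted p of 0.05, 15 of 103 passed for hPTH(1-34) against vehicle (12 higher, 3 lower), which is 14.6%, beside 9.31% of all clusters. For hPTH(1-34) against bPTH(7-34) it was 14 (9 higher, 5 lower), or 13.6% beside 9.52%, and for bPTH(7-34) against vehicle it was 2, both higher, or 1.94% beside 3.32%. Of the 103, 85 had a mean above the background limit in at least 1 group. Array medians of 1.67 to 1.76 lay near that limit. The shares of all clusters, here and beside the lists below, thus take in many near background. Fitting only clusters averaging 5 or more gave hPTH(1-34) a larger share, 948 of 5144 against vehicle and 972 of 5144 against bPTH(7-34). Of the pathway genes among them, 11 of 41 and 7 of 41 passed the unadjusted threshold. Whether a list exceeds genes of like level was not tested. The median log2 change of the 103 was 0.01 for hPTH(1-34) against vehicle, and that of all clusters was 0.

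Among 25 other ligands, 3 (12%, beside 9.31% of all clusters) had an unadjusted p under 0.05 for hPTH(1-34) against vehicle. Tgfb3 read 7.26, 6.86 and 6.72 with hPTH(1-34) and 7.56, 7.55 and 7.33 with vehicle (log2 change -0.53 ± 0.14, adjusted p = 0.220), and the groups did not overlap. It passed without hPTH(1-34) array 1, at -0.69 (adjusted p = 0.0328), and with no other array left out. Without that array 259 of 23521 clusters passed, against 106 with all 9 arrays. Bmp3, a BMP that opposes osteogenic BMPs, had a log2 change of -1.30 ± 0.51 (adjusted p = 0.461), and its arrays ranged from 3.81 to 5.27 with hPTH(1-34) and from 5.18 to 6.50 with vehicle, which overlap. Tgfb2 had a change of 0.23 ± 0.09 and Bmp7 one of 0.33 ± 0.15. Bmp7 was read at low levels, with means of 2.43 with hPTH(1-34) and 2.10 with vehicle. With bPTH(7-34) against vehicle, the smallest p among ligands were those of Bmp8b and Inhbe, both with an adjusted p of 0.999 and with means below the background limit of 1.69 in every group, so no size is given. Gdf5, which had the second smallest p among ligands between the peptides (adjusted p = 0.490), averaged 1.70 with hPTH(1-34) and 1.26 with bPTH(7-34), at and below that limit.

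Among 23 other antagonists and modulators, 1 (4.35%, beside 9.31% of all clusters) had an unadjusted p under 0.05 for hPTH(1-34) against vehicle. It was the BMP-activating protease Tll1 (log2 change 0.31 ± 0.11, adjusted p = 0.420). The BMP-binding proteins Chrd and Crim1 had changes of -0.37 ± 0.17 and -0.23 ± 0.11, and Htra3 had one of 0.15 ± 0.09. Sostdc1 (0.31 ± 0.18) and Kcp (0.23 ± 0.14) had the smallest p with bPTH(7-34) against vehicle, and Bmp1 differed by 0.25 ± 0.13 between hPTH(1-34) and bPTH(7-34). None of these passed the adjusted threshold.

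Of 16 other receptors and co-receptors, 3 (18.8%, beside 9.31% of all clusters) had an unadjusted p under 0.05 for hPTH(1-34) against vehicle. All 3 had a higher mean. They were the co-receptor Tgfbr3 (log2 change 0.30 ± 0.09, adjusted p = 0.291), the TGF-beta receptor Tgfbr1 (0.49 ± 0.17) and the activin type I receptor Acvr1b (0.46 ± 0.17). Bmpr1b had a change of -0.46 ± 0.27. With bPTH(7-34), Neo1 differed from vehicle by -0.13 ± 0.12. Among 18 SMADs and intracellular regulators, 3 (16.7%, beside 9.31% of all clusters) had an unadjusted p under 0.05 for hPTH(1-34) against vehicle. They were Tob1, an inhibitor of BMP signalling in bone (0.34 ± 0.12), Smad5 (0.42 ± 0.16) and the ubiquitin ligase Smurf2 (-0.23 ± 0.08). Lemd3 had a change of 0.33 ± 0.24, and Skil differed from vehicle by -0.24 ± 0.17 with bPTH(7-34).

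Of 21 other target genes, 5 (23.8%, beside 9.31% of all clusters) had an unadjusted p under 0.05 for hPTH(1-34) against vehicle and 0 passed the adjusted threshold, and all 5 had a higher mean with hPTH(1-34). Against bPTH(7-34) it was 6 (28.6%, beside 9.52%), of which 3 were higher with hPTH(1-34), namely Id3, Atoh8 and Tbx3, and 3 lower, namely Ccn2 (log2 change -0.74 ± 0.24), Tnfrsf11b (-0.53 ± 0.16) and Sp7. Id3, a relative of Id1, read 5.00, 4.98 and 4.93 with hPTH(1-34), 4.62, 4.32 and 4.47 with bPTH(7-34), and 4.71, 4.41 and 4.36 with vehicle. All hPTH(1-34) values were above the rest (log2 change against vehicle 0.48 ± 0.12, adjusted p = 0.184). Atoh8, a transcription factor gene induced by BMPs, read 6.36, 5.83 and 5.78 with hPTH(1-34), 5.60, 5.12 and 5.22 with bPTH(7-34), and 5.50, 5.09 and 4.85 with vehicle, again without overlap (0.84 ± 0.21, adjusted p = 0.193). Tbx3 (0.50 ± 0.16), Id2 (0.41 ± 0.17) and Tgfbi (0.88 ± 0.38) made up the 5. With bPTH(7-34) against vehicle, Tnfrsf11b, which encodes osteoprotegerin (0.46 ± 0.16), and Sp7, which encodes osterix, had the smallest p, each with an adjusted p of 0.999. Sp7 averaged 1.53 with hPTH(1-34), 2.03 with bPTH(7-34) and 1.45 with vehicle, so it was above the background limit in bPTH(7-34) alone.

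**Figure D4:**
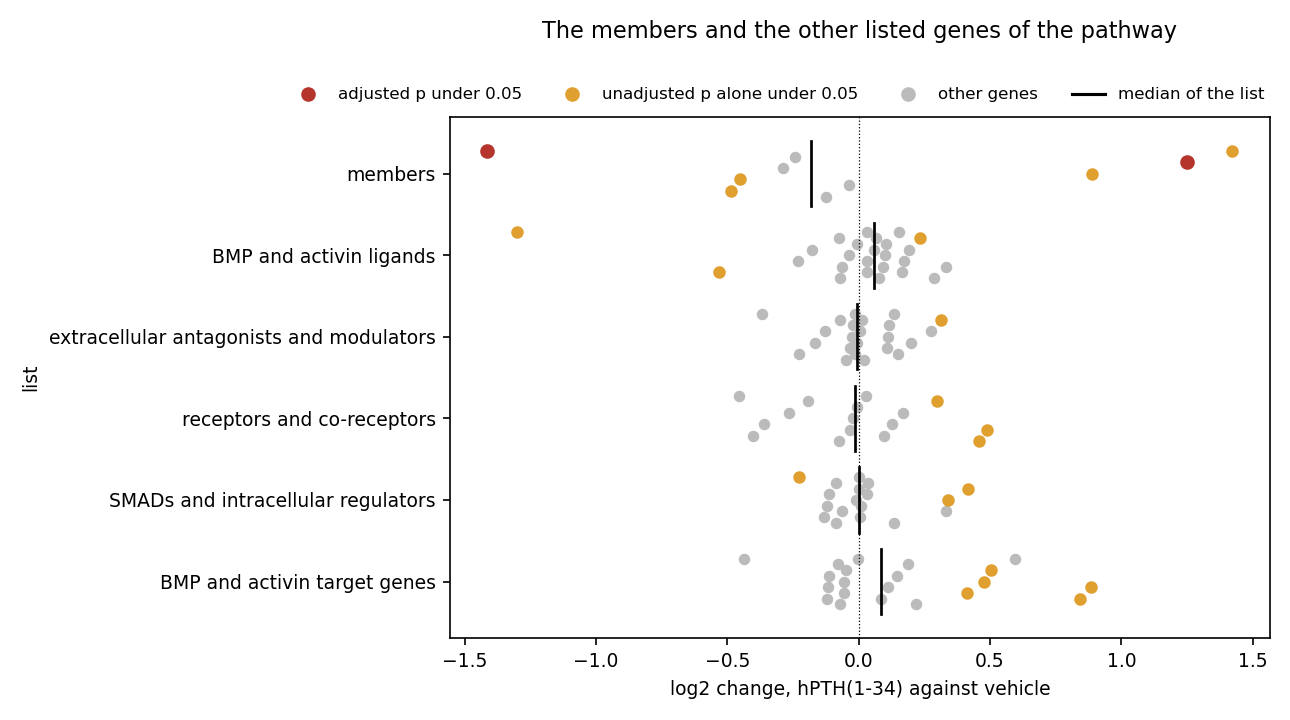
Each point is a gene's log2 change for hPTH(1-34) against vehicle (horizontal axis), in the 10 members and the lists of 103 other pathway genes, with colours for the adjusted and the unadjusted p and a bar at each list's median. The 2 members past the adjusted threshold, Bmp4 and Inhba, are the only red points.

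The clusters whose levels over the 9 arrays ran most like those of Bmp4 and Inhba were sought among the 5144 single-symbol clusters that averaged a log2 of 5 or more. Since the arrays fall into groups, these coefficients describe the arrays and have no p. The highest Pearson r with Bmp4 were those of Nrp2 (0.985, Spearman 0.933), Lrrk1 (0.983, Spearman 0.900) and Zfpm2 (0.976, Spearman 0.917), and the lowest were those of Nop56 (-0.982), Eif4e (-0.981) and Nectin1 (-0.981). The highest with Inhba were those of Txnrd1, Mt1 and Dctn4 (0.980 each, Spearman 0.917, 0.870 and 0.870), and the lowest were those of Zfpm2 (-0.977), Erbin (-0.974) and Atxn1 (-0.972). Zfpm2 was thus among the highest for Bmp4 and the lowest for Inhba.

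Array medians ran from 1.67 to 1.76 on the log2 scale, and correlations between arrays from 0.977 to 0.982 within groups and from 0.972 to 0.985 between them. Of the osteoblast markers, Col1a1 read 12.1 to 12.4 and Sparc 10.8 to 11.0 on the 9 arrays, while Bglap and Dmp1 had means in every group below the background limit. Alpl, the phosphatase of mineralising osteoblasts, read 6.32, 6.73 and 6.38 with hPTH(1-34), 5.32, 5.62 and 5.51 with bPTH(7-34), and 5.26, 5.86 and 5.39 with vehicle. It was above all other arrays with hPTH(1-34), as Inhba and Grem1 were, at a log2 change of 0.97 ± 0.17 against vehicle (adjusted p = 0.0601) and 0.99 ± 0.17 against bPTH(7-34) (adjusted p = 0.0539), which missed the threshold. The summed level of 9 osteoblast markers, most of it from Col1a1 and Col1a2, was 13.2 to 13.5 with hPTH(1-34), 13.2 to 13.4 with bPTH(7-34) and 13.2 to 13.4 with vehicle. The summed level of 7 adipocyte markers, of which 6 were above the background limit, was 8.15 to 9.03 with hPTH(1-34), 7.99 to 8.59 with bPTH(7-34) and 7.75 to 8.26 with vehicle, which overlap. Within each array number, though, this sum was highest with hPTH(1-34) and lowest with vehicle, as in number 3 at 8.74, 8.23 with bPTH(7-34) and 7.86. In this list, the fatty acid binding protein gene Fabp4 read 8.64, 7.71 and 8.34 with hPTH(1-34) and 7.68, 7.14 and 7.31 with vehicle, without overlap (log2 change 0.85 ± 0.26, adjusted p = 0.299), and the lipid droplet gene Plin1 had a change of 0.54 ± 0.21 (adjusted p = 0.454). Fabp4 and Plin1 were the 2 of these 7 with an unadjusted p under 0.05 for hPTH(1-34) against vehicle (28.6%, beside 9.31% of all clusters). In that comparison the adipocyte markers Cidec (log2 change 0.71 ± 0.44) and Adipoq (0.38 ± 0.40) had higher means with overlap. Pparg (0.01 ± 0.17) and Retn (-0.03 ± 0.18) were flat. Of the 7 changes 6 were positive, and their median was 0.38. The part of Alpl and of the adipocyte markers in the members' changes was not tested. All 8 macrophage and osteoclast markers were above the background limit in at least 1 group. Their summed level was 8.55 to 9.27 with hPTH(1-34), 8.70 to 9.20 with bPTH(7-34) and 8.87 to 9.26 with vehicle, which overlap. The part of these cells in the members' levels was not tested. Of the markers of other cell types, 0 passed the adjusted threshold in any comparison. Precision is limited by having 3 arrays in a group.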

How the data were processed

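RNA of 9 cultures was measured on Affymetrix Mouse Gene 2.0 ST arrays, per the labels. The deposited values are log2 expression per transcript cluster, made by the authors with Affymetrix Expression Console and RMA per the submitters' processing notes (versions not given in the sources used here). From these, limma 3.58.1 in R 4.3.3 fitted the 3 groups to the 23521 clusters with a single symbol in the platform annotation (1814 had several symbols, 16010 none), with eBayes, Benjamini-Hochberg adjustment and a threshold of 0.05. Intervals are 95% intervals of that fit. The script was tested on simulated data.

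The members and lists were chosen with earlier results of these data known. The named genes were every member, of each pathway list up to 4 of lowest p in hPTH(1-34) against vehicle and up to 2 in each other comparison, and for each member past the threshold the 3 clusters with the highest and the 3 with the lowest r. Tgfbi, Ccn2, Alpl, Fabp4, Plin1, Cidec, Adipoq, Pparg and Retn were named outside that rule, after their values were seen. Summed levels of markers are log2 of summed linear values. The background limit was set after earlier results were known. Promoters are RefSeq sequences on GRCm38.p6. The build of the array's annotation is not given in the sources used here. Plots and promoter searches used Python 3.11.15, with matplotlib 3.10.9. Alternatives were the array number as a block, other sets of clusters, other scalings and variance models, a fit to only the 6 arrays compared, and fits with an array left out.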

Additional observations from a re-analysis of the deposited data

How the results depend on the processing

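For hPTH(1-34) against vehicle 2 members were called. With the array number as a fixed replicate block 0 were called (Bmp4 adjusted p = 0.0853, Inhba 0.0550), over all transcript clusters 0, with the 6 arrays of the comparison alone 0, with arrays shifted to one median 1 (Inhba), and with an array left out 0 to 2. For hPTH(1-34) against bPTH(7-34) 2 were called, 1 with the fixed replicate block (Inhba), 0 over all clusters, 0 with the 6 arrays alone, and 0 to 2 with an array left out. Restricting the fit to a mean log2 of at least 5 leaves out Inhba and 5 other members, and then Bmp4 and Fst (adjusted p = 0.0397) passed against vehicle, and Bmp4, Fst and Grem1 (adjusted p = 0.0398) against bPTH(7-34). The fixed replicate block called 1 other pathway gene, Atoh8, in each of these comparisons (adjusted p = 0.0298 against vehicle and 0.0457 against bPTH(7-34)), and 0 to 1 were called against vehicle with an array left out. For bPTH(7-34) against vehicle the counts stayed 0 in all alternatives. The labels do not say that an array number marks a shared preparation, and of 9 pairs of arrays with one number 6, not all, had deviations correlated above 0.1 (0.0646 to 0.364 over the 9), so the block was not the basis of the reported tests. By deviations from group means, 8 of the 9 arrays correlated best with an array of their own number, among the arrays of the other groups. That is a hint from the data and not from the design. Over all clusters the numbers called against vehicle ran from 0 to 259 with an array left out, against 106 with all 9.

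The direction turned with an array left out for differences that had not passed the test. Against vehicle with hPTH(1-34) the values ran from -0.72 to 0.16 for Bmp6, -0.37 to 0.18 for Inhbb and -0.20 to 0.20 for Id1. Against vehicle with bPTH(7-34) they ran from -0.30 to 0.42 for Bmp6, -0.19 to 0.025 for Inhba, -0.44 to 0.11 for Inhbb, -0.42 to 0.0417 for Nog, -0.45 to 0.19 for Grem1, -0.16 to 0.0417 for Bmpr1a and -0.19 to 0.21 for Id1, and array weights gave 0.0139 for Id1. Between hPTH(1-34) and bPTH(7-34) they ran from -0.73 to 0.15 for Bmp6, -0.17 to 0.30 for Inhbb and -0.14 to 0.11 for Id1. Causes were not tested. Taking other clusters of the same symbol could not be run, since each member has 1 cluster. Signal near background limits Id1 and Bmp2, and of the other named genes Bmp7, Bmp8b, Inhbe, Gdf5, Chrd, Sostdc1 and Sp7.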
